A study of Mus musculus with 11 samples.

Results

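The 10 genes described here are Amh, Sox9, Dhh, Gata4, Wt1, Clu, Inha, Inhbb, Cldn11 and Fshr, which are used as identity genes of Sertoli cells, the somatic nurse cells of the seminiferous tubule. They were chosen by name, with earlier results of these data known, and all 10 were found among the 33188 genes counted. Poly-A RNA of whole testes of mice at postnatal day 5 (P5, with the day of birth counted as the first day) was sequenced from 4 genotypes, and 11 libraries were analysed: 2 of wild type (WT), 3 of Dnmt3CKO/KO (Dnmt3C KO), 3 of Nrf1KO/KO (Nrf1 cKO) and 3 of Dnmt3CKO/KO with Nrf1KO/KO (dKO). The sample titles name germ cells, while the text of the study gives whole testes, which is followed here. By the methods of the study, the Nrf1 cKO and dKO animals had 1 floxed Nrf1 allele, deleted by Ddx4-Cre (Vasa-Cre) in germ cells, and 1 KO allele present in all cells. By those alleles their Sertoli cells, where this Cre is not active, would carry a single intact copy of Nrf1. DNMT3C is the methyltransferase that methylates promoters of young retrotransposons in fetal male germ cells, and NRF1 is a transcription factor whose binding is blocked by DNA methylation. All strains were on a C57Bl6/J background, and controls were littermates where that could be arranged. In the breeding scheme of the study littermates without Cre also had a floxed and a KO allele of Nrf1, while littermates with functional Dnmt3C were heterozygous for its KO allele. An example of a genotyped WT animal had Cre with KO and WT alleles of Nrf1. The alleles of each sequenced animal are not given in the sources used here. The study asked whether NRF1 drives unmethylated retrotransposons in germ cells, and the question here is whether the Sertoli cell genes of the same testes differed between the genotypes.

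Sertoli cells surround the germ cells, feed them, and fix the male course of the gonad. SOX9, GATA4 and WT1 are transcription factors that set up and keep this identity. Anti-Müllerian hormone (Amh), the inhibin and activin subunits (Inha, Inhbb) and Desert hedgehog (Dhh) are signals that Sertoli cells send out, and the receptor of follicle-stimulating hormone (Fshr) is how the pituitary reaches them. Cldn11 builds the tight junctions between neighbouring Sertoli cells, and Clu (clusterin) is a chaperone they secrete. In the mouse, Sertoli cells still divide in the first postnatal days, express Amh strongly, and have not yet closed the blood-testis barrier.

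The summed counts per library lay between 26063590 and 39365841. The targeted genes did not check the labels. Nrf1 ranged from 44.4 to 61.2 CPM (counts scaled to library size) over the 11 libraries. It was at 52 to 57.7 CPM in Nrf1 cKO against 56.5 to 57.7 CPM in WT. In dKO it was at 57.1 to 61.2 CPM, with every library above those of Dnmt3C KO (44.4 to 56.6 CPM). Dnmt3c ranged from 2.98 to 4.97 CPM. Whole-testis counts include somatic cells, in which Cre is not active, and each count is over the whole gene. Why Nrf1 was not lower with deletion was not tested, and genotypes are those of the labels throughout. In whole-testis RNA, fewer cells of a type and less RNA per cell cannot be told apart. CPM used TMM factors, and adjusted p-values are from edgeR's quasi-likelihood test with Benjamini-Hochberg adjustment over all genes and TE subfamilies, called at 0.01.

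The bases just upstream of the start were available for 5 of the 10 genes (RefSeq, GRCm38.p6), and they are shown for the 3 that had an unadjusted p under 0.05 for Nrf1 deletion and whose RefSeq start is that of the GENCODE gene. Each run is the 250 bases before the start site, 5′ to 3′ on the strand of the gene, with the only motif matches found in capitals. Inhbb (chr1:119422249-119422498, minus strand) holds a GATA motif on the opposite strand, with its first base 27 bases before the start, Fshr (chr17:89200676-89200925, minus strand) holds the E-box CACGTG 61 bases before the start, and Dhh (chr15:98898541-98898790, minus strand) holds none of the motifs searched.
Inhbb: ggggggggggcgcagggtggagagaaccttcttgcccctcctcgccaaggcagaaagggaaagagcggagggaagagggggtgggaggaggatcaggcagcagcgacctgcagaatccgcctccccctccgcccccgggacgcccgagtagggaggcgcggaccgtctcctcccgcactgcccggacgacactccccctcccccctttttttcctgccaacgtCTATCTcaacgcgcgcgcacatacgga
Fshr: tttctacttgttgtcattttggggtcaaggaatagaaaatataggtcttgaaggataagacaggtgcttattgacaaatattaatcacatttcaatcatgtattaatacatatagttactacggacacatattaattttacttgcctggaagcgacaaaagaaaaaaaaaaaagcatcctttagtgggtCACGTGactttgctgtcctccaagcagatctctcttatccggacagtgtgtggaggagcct
Dhh: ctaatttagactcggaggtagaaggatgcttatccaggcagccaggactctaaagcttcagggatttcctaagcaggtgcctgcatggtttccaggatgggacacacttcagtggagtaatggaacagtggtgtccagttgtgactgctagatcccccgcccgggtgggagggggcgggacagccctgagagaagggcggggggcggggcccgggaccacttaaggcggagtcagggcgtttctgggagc

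The search covered both strands of the 250 bases before and the 50 bases after the start for the NRF1 core (GCGCA, any base, GCGC), GATA motifs (GATA with A or T before it and A or G after it), the SF1 motif (AAGGTCA), the E-box (CACGTG) and the cAMP response element (TGACGTCA or TGCGTCA). The NRF1 core was in none of the windows of Dhh, Inha, Inhbb, Cldn11 and Fshr, while 4.6% of 32851 promoters of that length held it. At that share most small sets of windows hold none, so its absence does not set these genes apart. The Inha window begins at 75507359, inside the GENCODE gene, which starts at 75507077. A GATA motif was in 29.8% of promoters, the E-box in 7.15%, the SF1 motif in 4.72% and the cAMP response element in 3.81%. The G and C content of the 300-base windows was 64.3% for Inhbb, 61.7% for Dhh and 40.7% for Fshr.

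All 10 genes were expressed in every library. Per length (CPM per kilobase of exon, mean ± SD over 11 libraries), Clu at 749 ± 162 and Inha at 667 ± 150 stood highest, and Clu lay above Inha in 8 of 11 libraries. Amh followed at 274 ± 112, Gata4 at 103 ± 21.6 and Inhbb at 55.6 ± 17.2, each above the next gene in all 11 libraries. Dhh at 37.6 ± 10.1 lay above Cldn11 in 9 libraries. The last 4 were not apart beyond their spread: Cldn11 at 26.8 ± 20.3, Fshr at 23.4 ± 4.42, Sox9 at 21.8 ± 9.92 and Wt1 at 21.6 ± 5.21 CPM per kilobase, with Cldn11 above Fshr in 5 libraries, Fshr above Sox9 in 5 and Sox9 above Wt1 in 4. The ratio of the highest to the lowest library was 9.46 for Cldn11, 4.32 for Sox9 and 3.62 for Amh, and it was smallest for Gata4, at 1.79.

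**Figure D1:**
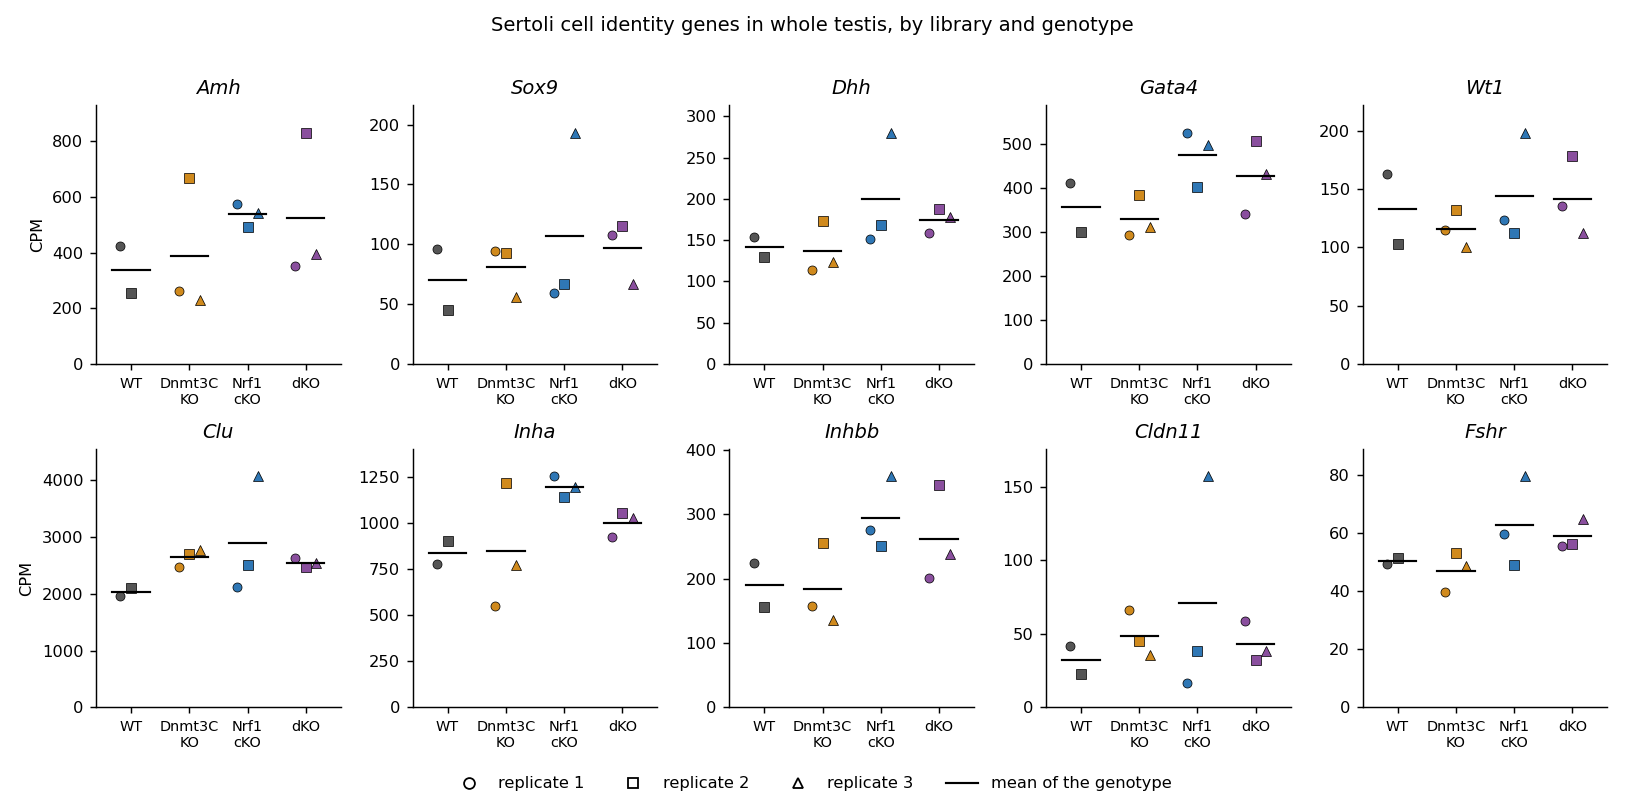
Level (CPM, linear axis from 0) of each of the 10 genes in every library, grouped by genotype, with 1 symbol per replicate and a line at the genotype mean. The third Nrf1 cKO library holds the highest value of 7 genes, among them 157 CPM of Cldn11 and 193 CPM of Sox9.

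Among the transcription factors, Gata4 (chr14:63198922-63271692, minus strand) was the one with the most even levels. GATA4 binds the promoters of many Sertoli cell genes, Amh and the inhibin subunits among them. Gata4 was at 413 and 301 CPM in WT, 294, 384 and 311 CPM in Dnmt3C KO, 526, 402 and 498 CPM in Nrf1 cKO and 341, 508 and 433 CPM in dKO. The Nrf1 cKO libraries lay above every Dnmt3C KO library, and 1 of them, at 402 CPM, lay below the higher WT library. Over both Dnmt3C genotypes, the 6 libraries with Nrf1 deletion were 0.39 higher on the log2 scale than the 5 without it (SE 0.13, unadjusted p = 0.00893, adjusted p = 0.422), which did not pass.

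Sox9 and Wt1 were led by a single library. SOX9 is the factor that turns the bipotential gonad towards Sertoli cells, and WT1 keeps them from losing that fate. Sox9 (chr11:112782224-112787760, plus strand) was at 96 and 44.7 CPM in WT, 94.1, 93.1 and 55.7 CPM in Dnmt3C KO, 59.7, 67.1 and 193 CPM in Nrf1 cKO and 108, 115 and 66.4 CPM in dKO. The WT libraries stood far apart, and the other Nrf1 cKO libraries lay between them. The Sox9 difference for Nrf1 deletion was 0.40 (SE 0.30, adjusted p = 0.71), and 0.09 without the third Nrf1 cKO library. Wt1 (chr2:105126529-105173616, plus strand) was at 163 and 103 CPM in WT, 115, 132 and 100 CPM in Dnmt3C KO, 123, 112 and 198 CPM in Nrf1 cKO and 135, 178 and 112 CPM in dKO. All 4 groups of Wt1 overlapped, and its difference for Nrf1 deletion was 0.21 (SE 0.17, adjusted p = 0.726), and 0.10 without the third Nrf1 cKO library.

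Of the secreted signals, Amh, Inha and Inhbb lay higher in every Nrf1 cKO library than in either WT library, as did 10.2% of all features. AMH makes the Müllerian ducts regress and is a mark of immature Sertoli cells. Amh (chr10:80805243-80807648, plus strand) was at 423 and 254 CPM in WT, 263, 667 and 229 CPM in Dnmt3C KO, 574, 493 and 544 CPM in Nrf1 cKO and 352, 830 and 396 CPM in dKO. The Nrf1 cKO libraries were close together, while 1 Dnmt3C KO and 1 dKO library stood far above their groups. Amh was 0.64 higher in Nrf1 cKO than in WT (SE 0.26, unadjusted p = 0.0294, adjusted p = 0.743), and 0.54 higher with Nrf1 deletion over all libraries (SE 0.28, adjusted p = 0.605). The first value was 1.09 without the first WT library and 0.32 without the second, and the other was 0.87 without the second Dnmt3C KO library and 0.31 without the second dKO library.

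Inha encodes the alpha subunit of inhibin and Inhbb the beta B subunit, which inhibin B and activin B share. Inha (chr1:75507077-75510366, plus strand) was at 778 and 902 CPM in WT, 550, 1220 and 774 CPM in Dnmt3C KO, 1254, 1140 and 1199 CPM in Nrf1 cKO and 926, 1053 and 1030 CPM in dKO. Every Nrf1 cKO library lay above every dKO library, as for 3.28% of all features. Every dKO library lay above both WT libraries, as for 7.12% of features. The Dnmt3C KO libraries of Inha spanned the WT and dKO ranges. Its difference for Nrf1 deletion was 0.36 (SE 0.16, unadjusted p = 0.0419, adjusted p = 0.559), and 0.55 without the second Dnmt3C KO library. Inhbb (chr1:119415465-119422248, minus strand) was at 225 and 156 CPM in WT, 158, 256 and 136 CPM in Dnmt3C KO, 275, 251 and 359 CPM in Nrf1 cKO and 201, 346 and 239 CPM in dKO. It had the smallest p of the 10 genes for Nrf1 deletion, with a difference of 0.57 (SE 0.18, unadjusted p = 0.00715, adjusted p = 0.411), and it was 0.61 higher in Nrf1 cKO than in WT (SE 0.24, unadjusted p = 0.0277, adjusted p = 0.733), or 0.93 without the first WT library and 0.37 without the second.

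Dhh signals from Sertoli cells to Leydig and peritubular cells. Dhh (chr15:98891152-98898540, minus strand) was at 154 and 130 CPM in WT, 114, 173 and 124 CPM in Dnmt3C KO, 151, 169 and 280 CPM in Nrf1 cKO and 159, 188 and 178 CPM in dKO. The dKO libraries lay above both WT libraries, as for 7.12% of features, and the Nrf1 cKO range began below the higher WT library. The difference for Nrf1 deletion was 0.42 (SE 0.16, unadjusted p = 0.0177, adjusted p = 0.496), and 0.36 between dKO and Dnmt3C KO (SE 0.15, unadjusted p = 0.0393, adjusted p = 0.654). Exons of Dhh overlap those of Rhebl1 on the same strand in GENCODE M21, so part of its count could not be separated from that gene. Fshr (chr17:88984952-89200675, minus strand), the receptor that raises cAMP in Sertoli cells, was at 49.2 and 51.4 CPM in WT, 39.6, 53 and 48.5 CPM in Dnmt3C KO, 59.6, 48.9 and 79.5 CPM in Nrf1 cKO and 55.4, 56.4 and 64.9 CPM in dKO. Every dKO library of Fshr lay above every WT and every Dnmt3C KO library. Of all features, 7.12% lay so against WT and 6.09% against Dnmt3C KO. Fshr was 0.33 higher in dKO than in Dnmt3C KO (SE 0.13, unadjusted p = 0.0268, adjusted p = 0.654) and 0.32 higher with Nrf1 deletion (SE 0.12, unadjusted p = 0.0185, adjusted p = 0.505).

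Clu is the secreted chaperone and Cldn11 the protein of the tight junctions. Clu (chr14:65968483-65981547, plus strand) was at 1967 and 2108 CPM in WT, 2464, 2696 and 2766 CPM in Dnmt3C KO, 2112, 2505 and 4061 CPM in Nrf1 cKO and 2626, 2470 and 2538 CPM in dKO. Each mutant library lay above both WT libraries, in Nrf1 cKO by as little as 2112 against 2108 CPM. Of all features, 10.6% lay so in Dnmt3C KO, 10.2% in Nrf1 cKO and 7.12% in dKO. Clu was 0.36 higher in Dnmt3C KO than in WT (SE 0.24, adjusted p = 0.918), and its difference for Nrf1 deletion was 0.19 (SE 0.18, adjusted p = 0.764), falling to 0.04 without the third Nrf1 cKO library. Cldn11 (chr3:31149920-31164324, plus strand) had the widest spread, at 41.7 and 22.8 CPM in WT, 66.2, 45.1 and 35.3 CPM in Dnmt3C KO, 16.6, 38.4 and 157 CPM in Nrf1 cKO and 58.5, 32.2 and 38.6 CPM in dKO. The lowest and the highest of the 11 values were both Nrf1 cKO libraries. The Cldn11 difference for Nrf1 deletion was 0.38 (SE 0.46, adjusted p = 0.829), and it turned to -0.20 without the third Nrf1 cKO library.

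The library with the most Cldn11, Sox9 and Clu also held the most RNA of Pax8, a gene of rete testis and epididymal epithelium. Pax8 was at 9.71 and 0.986 CPM in WT, 1.08, 8.42 and 1.63 CPM in Dnmt3C KO, 2.2, 0.163 and 17.1 CPM in Nrf1 cKO and 8.19, 2.08 and 3.29 CPM in dKO. The summed level of all 4 markers of that epithelium (Pax8, Pax2, Krt19, Cdh16) was 4.1 to 16.8 CPM in WT, 3.29 to 13.3 CPM in Dnmt3C KO, 2.55 to 24.5 CPM in Nrf1 cKO and 5.44 to 11.4 CPM in dKO. Cdh16 was at 0 counts in 2 libraries, while Krt19 was at 0.424 CPM in the third Nrf1 cKO library, below most others. Over the 11 libraries, log2 CPM correlated with the log2 of that sum above 0 for all 10 genes, at r = 0.83 for Wt1, 0.74 for Sox9, 0.67 for Dhh, 0.59 for Fshr, 0.57 for Inhbb, 0.51 for Cldn11, 0.48 for Amh, 0.46 for Gata4, 0.36 for Clu and 0.33 for Inha. Over the 10 libraries without the third Nrf1 cKO library, r was 0.74 for Wt1, 0.60 for Sox9, 0.46 for Dhh and 0.45 for Amh, between 0.15 and 0.41 for Fshr, Inhbb, Cldn11, Gata4 and Inha, and -0.21 for Clu. The part of this epithelium in the levels of these genes was not tested.

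None of the 10 genes was called among the 4 genotypes, where 0% of 22594 features were called by edgeR's quasi-likelihood test, and 1 of 10 (Gata4, adjusted p = 0.718) had an unadjusted p under 0.05 against 6.87% of all features. DESeq2 called none of the 10 either, with 2 at an unadjusted p under 0.05, and with 1 library left out edgeR gave 0 to 5, the highest without the second Dnmt3C KO library. For Nrf1 deletion none was called (0.00443% of all features were), but all 10 log2 fold changes lay above 0 with a median of 0.38, where 50.4% of all features lay above 0 with a median near 0. The 10 genes are markers of the same cell type in the same libraries, and 43 of their 45 pairs correlated above 0. They are therefore not 10 separate tests, and such counts are given as a description. Of the 10, 5 (Inhbb, Gata4, Dhh, Fshr and Inha) had an unadjusted p under 0.05 and a higher level, against 3.69% of all features, and DESeq2 also gave 5 with none called. That count was 3 without the second WT library or without the first Dnmt3C KO library. Without the third Nrf1 cKO library it was 4, with 9 of 10 genes above 0 and a median of 0.26. With all 11 libraries, none of the 10 genes had groups that did not overlap for Nrf1 deletion or for Dnmt3C loss. Of all features, 0.297% lay higher and 0.451% lower without overlap for Nrf1 deletion, and 0.181% higher and 0.0398% lower for Dnmt3C loss.

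**Figure D2:**
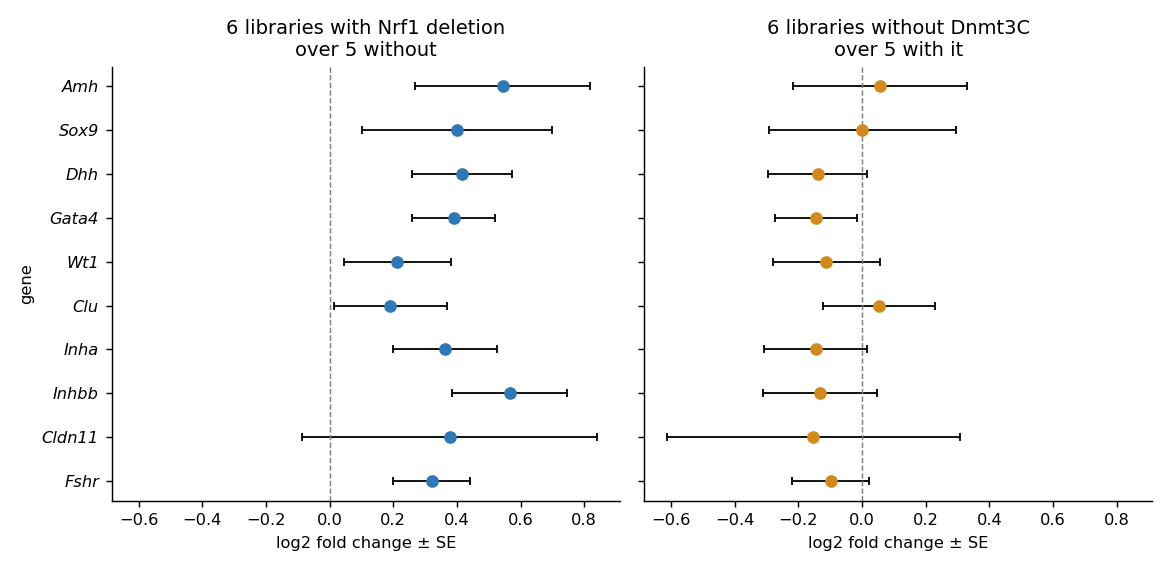
Log2 fold change with its standard error of each gene for Nrf1 deletion (left, 6 libraries over 5) and Dnmt3C loss (right, 6 over 5), from the additive fit on all 11 libraries, with a dashed line at 0. All 10 points on the left lie above 0, from 0.19 for Clu to 0.57 for Inhbb, and those on the right lie between -0.15 and 0.06.

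For Dnmt3C loss over both Nrf1 genotypes, none of the 10 genes was called (0.0221% of all features were) and none had an unadjusted p under 0.05 (3.35% of features), by edgeR or DESeq2. The log2 fold changes lay between -0.15 for Cldn11 and 0.06 for Amh, with standard errors from 0.12 for Fshr to 0.46 for Cldn11, and 3 of 10 were above 0 (48.5% of features). Their median was -0.12, and without the third Nrf1 cKO library it was 0.03 with 7 of 10 above 0. The effect of Nrf1 deletion did not differ detectably between Dnmt3C genotypes: for the interaction 0% of features were called, and none of the 10 genes had an unadjusted p under 0.05 by either tool, against 6% of features. The largest interaction estimates were -1.29 for Cldn11 (SE 0.88, adjusted p = 0.86) and -0.55 for Clu (SE 0.34, adjusted p = 0.847). Without the third Nrf1 cKO library they were 0.05 for Cldn11 and -0.23 for Clu.

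In the 5 pairwise comparisons, which share libraries with each other, the main edgeR test called none of the 10 genes and 0% of all features in each. With 1 library left out, edgeR called up to 28 features in Nrf1 cKO over WT (without the first Nrf1 cKO library), 22 in Dnmt3C KO over WT and 11 in dKO over WT (both without the first WT library), none of them among the 10 genes, and 0 in the other pairs. In Nrf1 cKO over WT the 10 genes had a median log2 fold change of 0.49, and 2 (Amh and Inhbb) had an unadjusted p under 0.05 with a higher level, against 1.64% of features. In that comparison 4 genes (Amh, Clu, Inha, Inhbb) had groups that did not overlap, higher in Nrf1 cKO, against 10.2% of features. Endothelial markers lay higher in the same comparison, with 8 of 8 above 0, a median of 0.58 and 4 (Vwf, Tie1, Cldn5 and Tek) at an unadjusted p under 0.05 (lowest adjusted p = 0.691). Their summed level was 276 to 475 CPM in Nrf1 cKO against 289 to 297 CPM in WT, lowest in the third Nrf1 cKO library. The part of endothelium in the levels of the 10 genes was not tested. The count of 2 was 0 without the second WT library and 3 with DESeq2. Without the third Nrf1 cKO library it was 1, and the median was 0.16 with 7 of 10 genes above 0. In dKO over Dnmt3C KO the median was 0.31, with 8 of 10 genes above 0, and 3 (Fshr, Dhh, Gata4) had an unadjusted p under 0.05 with a higher level, against 3.27% of features, while DESeq2 gave 4. Fshr alone had groups that did not overlap there, against 6.09% of features higher. The count of 3 was 0 without the first or the third Dnmt3C KO library, 6 without the second, 1 without the second or the third dKO library, and 0 with all 4 genotypes in 1 fit. The median was 0.15 without the second dKO library. In this comparison 0 of 20 germ cell markers lay above 0 (median -0.876), and 11 were lower at an unadjusted p under 0.05. Of all features, 890 of 20783 were lower at that p. Above 0 were 0 of 7 macrophage (median -0.505), 0 of 8 peritubular (-0.336) and 1 of 8 Leydig cell markers (-0.215). The part of these cells in the levels of the 10 genes was not tested.

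Against WT, dKO had a median of 0.30 with all 10 genes above 0, and none at an unadjusted p under 0.05 (2.04% of features), while DESeq2 gave 1. The groups did not overlap for Dhh, Clu, Inha and Fshr, all higher in dKO, against 7.12% of features. Markers of red blood cells were lower in the same comparison, with all 7 at an unadjusted p under 0.05 and a median of -1.77 (lowest adjusted p = 1, edgeR). Their summed level was 263 to 781 CPM in dKO against 655 and 2148 CPM in WT. They were also lower in Dnmt3C KO over WT, with all 7 at an unadjusted p under 0.05 and a median of -1.25 (lowest adjusted p = 0.45). None of the 7 lay above 0 in Nrf1 cKO over WT (median -0.87). Their part in the levels of the 10 genes was not tested. For dKO over WT the median of the 10 genes was 0.46 without the first WT library, with 4 genes at an unadjusted p under 0.05, and 0.19 without the second, with 8 of 10 genes above 0. For Dnmt3C KO over WT the median was -0.04, none of the 10 had an unadjusted p under 0.05 (5.78% of features), DESeq2 gave 2, and Clu alone lay above WT in every library, against 10.6% of features. For dKO over Nrf1 cKO the median was -0.16 with 0 of 10 above 0, none had an unadjusted p under 0.05 (3.08% of features), DESeq2 gave 1, and Inha alone had groups that did not overlap, lower in dKO, against 3.28% of features. Single libraries turned these medians, that of Dnmt3C KO over WT to 0.20 without the first WT library and to 0.06 or 0.08 without the first or the third Dnmt3C KO library, and that of dKO over Nrf1 cKO to 0.13 without the third Nrf1 cKO library.

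Most of the 23 other genes of Sertoli cells lay the same way. This list holds Sox8, Dmrt1, Gdnf, Kitl, Gja1 and Cdh2, among others. For Nrf1 deletion, 20 of the 23 lay above 0 with a median of 0.20, and 5 had an unadjusted p under 0.05, all higher, against 3.69% of all features. Hsd17b1, a steroid-converting enzyme, was 0.55 higher (SE 0.20, unadjusted p = 0.0152, adjusted p = 0.475) and Cdh2, the N-cadherin of the Sertoli cell junctions, 0.46 higher (SE 0.19, unadjusted p = 0.0303, adjusted p = 0.538). When libraries were scaled to an equal mean log2 level of these 23 genes, the median of all features moved to -0.13 for Nrf1 deletion, and that of the 10 genes was 0.23 with all 10 above 0. With that scaling only Inhbb had an unadjusted p under 0.05, at 0.42 (adjusted p = 0.432), and Clu was at 0.03 and Wt1 at 0.05. The same scaling took the median of the 10 genes to 0.30 in Nrf1 cKO over WT and to 0.15 in dKO over WT, each with 9 of 10 above 0, and to 0.20 in dKO over Dnmt3C KO. Without that scaling, 4 of the 23 other genes were higher at an unadjusted p under 0.05 in Dnmt3C KO over WT. There 12 of 23 lay above 0, and 5.78% of features had such a p in either direction. The count was 1 in Nrf1 cKO over WT (1.64% of features) and 6 in dKO over Dnmt3C KO (3.27%).

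**Figure D3:**
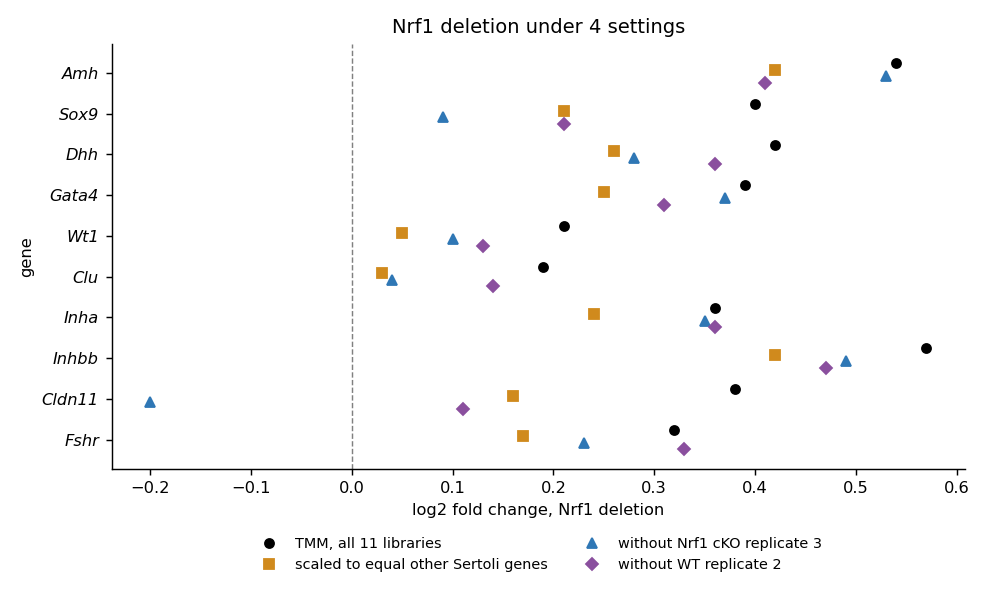
Log2 fold change for Nrf1 deletion of each gene under 4 settings, marked by symbol, with a dashed line at 0. Inhbb, Amh, Dhh, Gata4 and Inha stay at 0.24 or more in all 4, while Cldn11 falls on both sides of 0.

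The summed level of the 10 genes was 4073 to 4310 CPM in WT, 4157 to 5719 CPM in Dnmt3C KO, 5150 to 7569 CPM in Nrf1 cKO and 4961 to 5776 CPM in dKO. That of the 23 other Sertoli cell genes was 4213 to 4785 CPM in WT, 4574 to 5558 CPM in Dnmt3C KO, 4771 to 7094 CPM in Nrf1 cKO and 5242 to 5519 CPM in dKO. The first sum over the second was 0.851 to 1.02 in WT, 0.909 to 1.03 in Dnmt3C KO, 1.03 to 1.08 in Nrf1 cKO and 0.923 to 1.07 in dKO. The ratios of all 3 Nrf1 cKO libraries lay above both WT libraries, and they overlapped those of Dnmt3C KO and dKO.

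Germ cell markers were mostly lower with Nrf1 deletion. The summed level of 20 germ cell markers (Ddx4, Dazl and Dnd1 among them) was 387 to 437 CPM in WT, 392 to 660 CPM in Dnmt3C KO, 137 to 261 CPM in Nrf1 cKO and 170 to 411 CPM in dKO, and of these markers Rhox13 was at 0 in some library. For Nrf1 deletion 1 of 20 lay above 0, the median was -1.07, and 15 reached an unadjusted p under 0.05 with a lower level, against 4.86% of all features, without being called (lowest adjusted p = 0.162). Dazl, an RNA-binding protein of germ cells, was at -1.16 (SE 0.29, adjusted p = 0.238). Over the 11 libraries, log2 CPM correlated with the log2 of the germ cell sum at r = -0.73 for Inha, -0.71 for Dhh, -0.69 for Fshr, -0.63 for Gata4 and -0.62 for Inhbb, at -0.44 for Amh and -0.39 for Clu, and at -0.18 for Wt1, -0.12 for Cldn11 and -0.11 for Sox9. Without the third Nrf1 cKO library, r was 0.35 for Cldn11, 0.29 for Sox9, 0.13 for Wt1 and -0.05 for Clu, and from -0.70 (Inha) to -0.40 (Amh) for the other 6 genes. The libraries share the scaling of CPM and fall by genotype, and the part of the lower germ cell markers in the Sertoli cell levels was not tested.

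**Figure D4:**
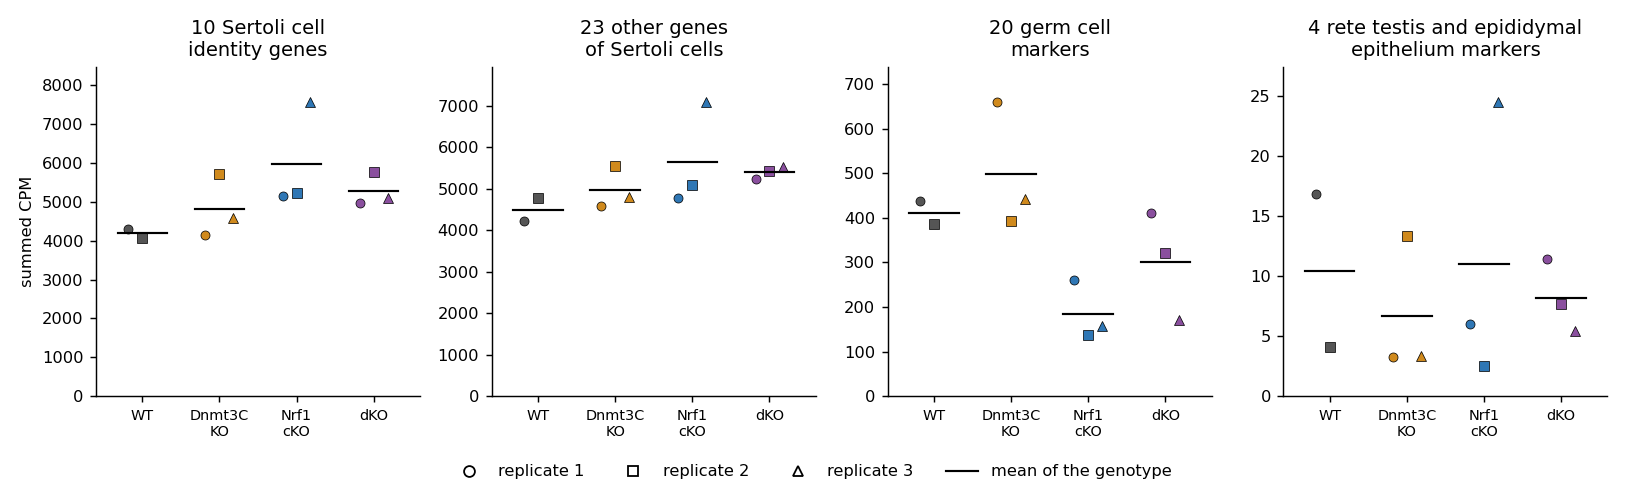
Summed CPM (linear axes from 0) of the 10 Sertoli cell identity genes, the 23 other genes of Sertoli cells, 20 germ cell markers and 4 markers of rete testis and epididymal epithelium in each library, by genotype, with 1 symbol per replicate and a line at the mean. Germ cell sums of Nrf1 cKO (137 to 261 CPM) lie below those of WT (387 to 437 CPM), and the third Nrf1 cKO library is highest in 3 of the 4 sums.

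Some libraries were high or low for most of the 10 genes. The third Nrf1 cKO library was the highest of all 11 for Sox9, Dhh, Wt1, Clu, Inhbb, Cldn11 and Fshr, and all 10 genes were above their mean there by a median of 0.64 on the log2 scale. The second WT library had all 10 genes below their mean, at a median of -0.36, and the first Dnmt3C KO library held the lowest value of Dhh, Gata4, Inha and Fshr. Of 45 pairs among the 10 genes, 43 correlated above 0 over the 11 libraries (median r = 0.65), and 32 over the 10 libraries without the third Nrf1 cKO library (median r = 0.48). The closest pairs were Amh with Inhbb (r = 0.93, and 0.97 without that library) and Gata4 with Inhbb (r = 0.92), beside Sox9 with Wt1 (r = 0.88, and 0.80 without it). The lowest were those of Cldn11 with Inha (r = -0.12), Gata4 (-0.01) and Amh (0.01), which were -0.53, -0.47 and -0.21 without that library, and Cldn11 with Fshr went from 0.30 to -0.47.

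**Figure D5:**
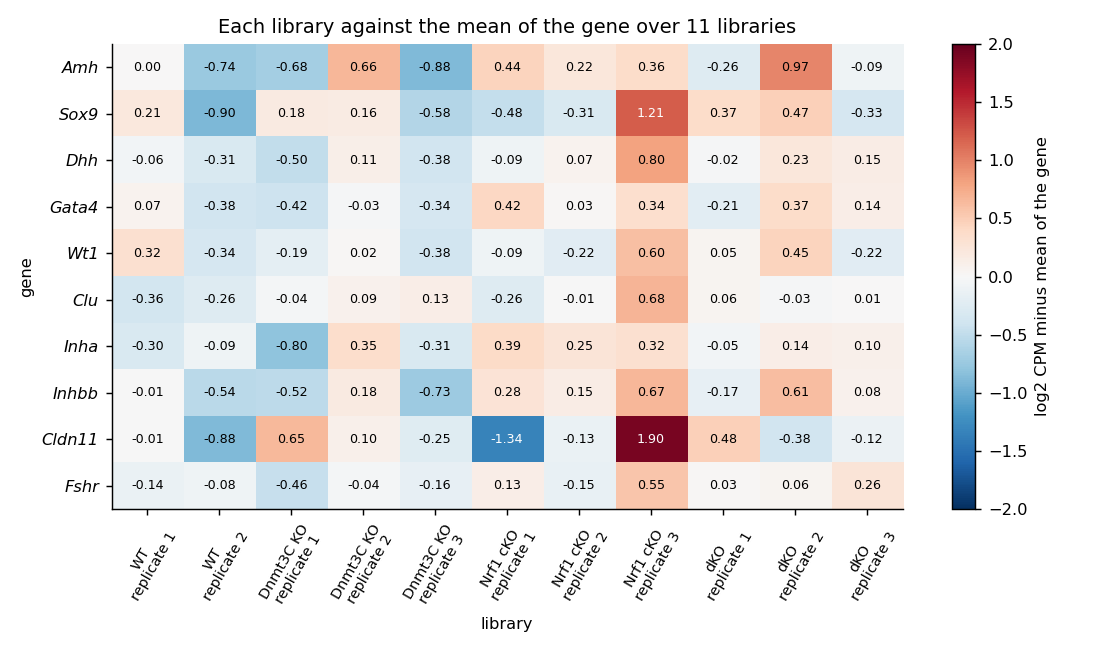
Log2 CPM of each gene in each library minus the mean of the gene over the 11 libraries, from blue (below) to red (above), with the value in each cell. Amh, Gata4, Inha and Inhbb lie above their means in every Nrf1 cKO library, by 0.03 (Gata4) to 0.67 (Inhbb), and in the second dKO library, and Cldn11 ranges from -1.34 to 1.90 within Nrf1 cKO.

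The receptors and targets of these signals were described by lists of genes. Of 19 receptors, antagonists and signal carriers of AMH, inhibin and activin, 16 lay above 0 for Nrf1 deletion with a median of 0.16, and 2 had an unadjusted p under 0.05, both higher. In that list Id3, a target of SMADs, was at 0.23 (SE 0.18, adjusted p = 0.726) and Fstl3, a secreted binder of activin, at 0.33 (SE 0.16, adjusted p = 0.595). Of 13 receptors, release factors and targets of Desert hedgehog, 11 lay above 0 with a median of 0.09 and none had an unadjusted p under 0.05. Hhip, which binds the ligand, was at 0.09 (SE 0.16, adjusted p = 0.889) and Ptch1, its receptor and target, at 0.08 (SE 0.11, adjusted p = 0.841), beside 0.42 for Dhh itself.

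Of 13 signal carriers and targets of the FSH receptor, 11 lay above 0 for Nrf1 deletion with a median of 0.14, and 2 had an unadjusted p under 0.05: Nr4a1, an early response gene, at 0.50 (SE 0.21, adjusted p = 0.544) and Prkaca, the catalytic subunit of protein kinase A, at 0.27 (SE 0.11, adjusted p = 0.529). Of 12 tight junction genes, 10 lay above 0 with a median of 0.20, and 2 had an unadjusted p under 0.05: Jam2 at 0.34 (SE 0.12, adjusted p = 0.459) and Cxadr at 0.27 (SE 0.12, adjusted p = 0.558), both adhesion proteins of junctions. Of 10 transcription partners of sex determination that were tested, 5 lay above 0 with a median of 0.06, and 4 reached an unadjusted p under 0.05 (3 higher and 1 lower). Nr5a1 (SF1), which acts with SOX9, GATA4 and WT1 on the Amh promoter, was at 0.40 (SE 0.11, unadjusted p = 0.00334, adjusted p = 0.326) and Six4, a factor upstream of Sry, at -0.43 (SE 0.17, adjusted p = 0.529). Of 7 granulosa cell genes tested, 5 lay above 0 with a median of 0.10, and Esr2 alone had an unadjusted p under 0.05, at 0.49 (SE 0.18, adjusted p = 0.467), beside -0.38 for Rspo1 (SE 0.24, adjusted p = 0.668). For Dnmt3C loss the medians of these 6 lists lay at -0.11 or closer to 0.

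The genes whose levels followed the mean log2 CPM of the 10 genes most closely over the 11 libraries were Cpe (r = 0.981), Pak6 (0.978), Tyro3 (0.978), Mkrn1 (0.976) and Lsr (0.975), and the values over 10 libraries, without the third Nrf1 cKO library, were 0.957, 0.976, 0.978, 0.947 and 0.956. Tyro3, a receptor kinase with which Sertoli cells engulf dying germ cells, was at 391 and 270 CPM in WT, 316, 407 and 267 CPM in Dnmt3C KO, 358, 391 and 603 CPM in Nrf1 cKO and 377, 508 and 386 CPM in dKO. Its highest library was that of the 7 genes above. Gene by gene, the closest were Zfpm1 for Amh (r = 0.953), Wwp2 for Sox9 (0.967), Klhl25 for Dhh (0.984), Spsb1 for Gata4 (0.984), Nhsl1 for Wt1 (0.978), Pank1 for Clu (0.955), Scrn2 for Inha (0.939), Mafa for Inhbb (0.984), Gm1043 for Cldn11 (0.992) and Sytl4 for Fshr (0.953). Each is the highest r over all other features tested, over libraries that share their genotypes and scaling, and is given as a description.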

How the data were processed

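Stranded poly-A libraries of whole testes were aligned by the authors to GRCm38 with STAR 2.7.3a, and reads were assigned by TEtranscripts (multi mode, reverse strand) to genes and to subfamilies of transposable elements (TEs). The raw counts were deposited in tables of pairs of genotypes, beside the log2 fold changes, p-values and test statistics of the authors' DESeq2 1.44.0 comparisons, which were not used here. TPM deposited for TE copies hold no genes and were not used. The counts of a library did not differ between tables, and joining gave 11 libraries over 33188 genes and 1088 TE subfamilies, with a median total of 33862160 counts. Counts are of reads without molecular identifiers, so depth sets the counting error only.

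The main test was edgeR 4.0.16 in R 4.3.3 (filterByExpr, TMM, quasi-likelihood F test, Benjamini-Hochberg over 22594 features in the fits of all libraries, called at 0.01). Nrf1 deletion and Dnmt3C loss were each tested in an additive model, the interaction in a model with both factors, and pairs of genotypes on their own libraries. Standard errors were obtained from the log2 fold change and its F statistic, and log CPM used a prior count of 1. In simulated counts where 200 features differed by a log2 fold of 2, edgeR recovered 79% for Nrf1 deletion (22442 features, 1.86% of 161 calls false), 60.5% for Nrf1 cKO over WT (20978 features, 3.2% of 125 calls false) and 56% for the interaction (22462 features, 3.45% of 116 calls false). Recovery of smaller differences, such as those of the 10 genes for Nrf1 deletion, was not simulated. Alternatives were DESeq2 1.42.0, its size factors, the legacy quasi-likelihood method, no filter on low counts, a threshold of 0.05, the replicate number as a block, each library left out, scaling to the other Sertoli cell genes, and 1 fit of all genotypes for pairs. Exon lengths and positions are from GENCODE M21 (GRCm38), while the authors used M25. The 10 genes and all lists were chosen with earlier results of these data known. Named by rule were the 10 genes, the 2 genes of each other list with the smallest p among the 4 genotypes, and the genes with the most similar levels. The methods of the study state that a replicate of each genotype was left out for low RNA quality. Testes of littermates were collected, and the sources used here do not give which libraries share a litter. 1 gene that the rule for named genes picks from the marker lists is not reported here.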

Additional observations from a re-analysis of the deposited data

How the results depend on the processing

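The count of 0 genes called among the 10 was the same for all comparisons and alternatives with 1 exception: with the replicate number as a block, Cldn11 was called in Dnmt3C KO over WT, so the count was 1 (0.81, adjusted p = 0.00972, against 0.59 without the block). The numbers of the block are those of the sample titles, while the deposited columns number some libraries otherwise, and which libraries came from 1 litter is not given in the sources used here. Same-numbered libraries deviated together at correlations from -0.233 to 0.222, so the pairing was not taken up, and values with the block, the call of Cldn11 among them, rest on numbers that may pair no littermates. In dKO over Dnmt3C KO, the count of 3 genes at an unadjusted p under 0.05 was 7 with the block and 0 with scaling to the other Sertoli cell genes. Of 530 values of single genes under the other settings, 514 kept their direction and call, and of 600 with 1 library left out, 522 did.

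With the block, the median of the 10 genes in Nrf1 cKO over WT was 0.16 with 7 of 10 above 0, against 0.49 without it, and the direction turned for Amh (-0.02) in Dnmt3C loss, Dhh (0.00) in the interaction, Inhbb (0.08) in Dnmt3C KO over WT, Sox9 (-0.07), Wt1 (-0.16) and Cldn11 (-0.30) in Nrf1 cKO over WT, and Sox9 (0.07) in dKO over Nrf1 cKO. With scaling to the other Sertoli cell genes it turned for Gata4 in the interaction (0.02) and for Wt1 in Nrf1 cKO over WT (-0.10), dKO over WT (-0.08) and dKO over Nrf1 cKO (0.02). It also turned for Sox9 in Dnmt3C loss (-0.00, legacy method) and for Inha in Dnmt3C KO over WT (0.00 with DESeq2's size factors, 0.00 with DESeq2, 0.01 with no filter). None of these values was called, and the cause was not tested.

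With 1 library left out, the direction for Nrf1 deletion turned for Cldn11 alone (-0.20 to 0.59). For Dnmt3C loss it turned for Amh (-0.20 to 0.18), Sox9 (-0.18 to 0.40), Dhh (-0.22 to 0.03), Wt1 (-0.22 to 0.03), Clu (-0.03 to 0.25), Cldn11 (-0.42 to 0.62) and Fshr (-0.17 to 0.00). For the interaction it turned for Amh (-0.71 to 0.43), Sox9 (-1.0 to 0.41), Dhh (-0.29 to 0.19), Gata4 (-0.28 to 0.17), Wt1 (-0.19 to 0.47), Inha (-0.50 to 0.10), Inhbb (-0.40 to 0.21), Cldn11 (-1.80 to 0.05) and Fshr (-0.12 to 0.22). For Dnmt3C KO over WT it turned for Amh (-0.47 to 0.60), Sox9 (-0.25 to 0.85), Dhh (-0.27 to 0.07), Gata4 (-0.33 to 0.13), Wt1 (-0.49 to 0.16), Inha (-0.35 to 0.23) and Inhbb (-0.38 to 0.23). For Nrf1 cKO over WT it turned for Sox9 (-0.18 to 1.26), Wt1 (-0.20 to 0.50) and Cldn11 (-0.26 to 1.64), and for dKO over WT for Sox9 (-0.01 to 1.09) and Wt1 (-0.21 to 0.44). For dKO over Nrf1 cKO it turned for Amh (-0.50 to 0.18), Sox9 (-0.43 to 0.61), Dhh (-0.36 to 0.13), Wt1 (-0.20 to 0.27), Clu (-0.37 to 0.14), Cldn11 (-1.18 to 0.65) and Fshr (-0.23 to 0.13). For dKO over Dnmt3C KO it turned for Amh (-0.05 to 1.09) and Cldn11 (-0.48 to 0.12). A fit without 1 WT library keeps 1 WT sample, which is assumed to vary like the other groups.

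Over all features DESeq2 called more than edgeR: 127 against 0 among the 4 genotypes, 37 against 1 for Nrf1 deletion, 25 against 5 for Dnmt3C loss, 25 against 0 for Nrf1 cKO over WT, 24 against 0 for Dnmt3C KO over WT, 21 against 0 for dKO over Dnmt3C KO, 11 against 0 for dKO over Nrf1 cKO and 4 against 0 for dKO over WT. The block called 140 for Dnmt3C KO over WT, 89 for Nrf1 cKO over WT, 22 for dKO over WT and 1 for Dnmt3C loss, and scaling to the other Sertoli cell genes called 70 for Nrf1 cKO over WT. In the simulated counts, the share of false calls by DESeq2 was 10.3% for Nrf1 deletion, 8.12% for Nrf1 cKO over WT, 16.1% for dKO over Nrf1 cKO and 16.5% for the interaction, against 1.86%, 3.2%, 3.03% and 3.45% by edgeR. Each of the 10 genes had at least 541 counts in every library.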

Other observations

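The somatic cell types around the tubule, which receive the Sertoli cell signals, were described by lists of marker genes. For Nrf1 deletion, 4 of 8 Leydig cell markers lay above 0 with a median of -0.00, 1 of 8 peritubular cell markers with a median of -0.20, 1 of 8 macrophage markers with a median of -0.14, and 8 of 8 endothelial markers with a median of 0.25, and none of them had an unadjusted p under 0.05. For Nrf1 deletion, none of 7 erythroid markers lay above 0, their median was -0.69 and 2 had an unadjusted p under 0.05. Of 10 cell cycle genes, 4 lay above 0 for Nrf1 deletion with a median of -0.01, and 2 had an unadjusted p under 0.05, both lower. For Dnmt3C loss, 7 of 20 germ cell markers and 4 of 7 erythroid markers had an unadjusted p under 0.05, the first all higher (median of the list 0.46) and the second all lower (median -1.05), and none was called. In dKO over Nrf1 cKO, 0 of 8 endothelial markers lay above 0 with a median of -0.78, and 4 had an unadjusted p under 0.05, all lower.

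Summed levels differed between libraries of a genotype as well. The summed Leydig cell markers ranged from 806 to 1828 CPM in Nrf1 cKO and from 798 to 1455 CPM in dKO, and the erythroid markers from 309 to 1768 CPM in Nrf1 cKO and from 655 to 2148 CPM in WT. Of each list but the erythroid one, the pair of genes with the smallest p among the 4 genotypes was Insl3 (adjusted p = 0.6) and Cyp17a1 (adjusted p = 0.887) for Leydig cells, Lmod1 and Acta2 (0.82 and 0.842) for peritubular cells, Vwf and Tie1 (0.64 and 0.718) for endothelium, Cd68 and C1qc (0.781 and 0.858) for macrophages, Krt19 and Pax2 (0.923 and 0.928) for rete testis and epididymal epithelium, Dnd1 and Dazl (0.241 and 0.251) for germ cells, and Bub1 and Ccnb1 (0.458 and 0.475) for the cell cycle, all as adjusted p-values from edgeR. Among the erythroid markers, the smallest p was that of Slc4a1 (adjusted p = 0.173, edgeR).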
